A study of Caenorhabditis elegans with 6 samples.

Results

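The target of rapamycin (TOR) and AMP-activated protein kinase (AMPK) pathways were described here through 10 *Caenorhabditis elegans* genes. These genes were chosen by name and not by their values, although earlier results of these data were known. They were *let-363*, *daf-15*, *rict-1*, *raga-1*, *ragc-1*, *rsks-1*, *aak-1*, *aak-2*, *ife-2* and *hlh-30*. All 10 were found among the 20138 genes of the deposited count table, and all 10 passed the filter on low counts that left 13413 genes for testing.

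TOR is a kinase that works in a pair of complexes. Complex 1 is built with Raptor and is called to the lysosome by the Rag GTPases when amino acids are plentiful, where it promotes translation through S6 kinase and the cap-binding machinery. Complex 2 is built with Rictor and acts on fat metabolism and growth. AMPK is switched on when cellular energy is low and opposes TOR complex 1, and the transcription factor HLH-30 drives autophagy and lysosome genes when complex 1 is quiet. Dietary restriction and loss of TOR signaling extend lifespan in worms, and the study asked what the flavin-containing monooxygenase gene *fmo-4* does in longevity.

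The data were read counts of messenger RNA from whole worms on day 1 of adulthood, with 3 libraries of WT and 3 labelled *fmo-4* OE, for *fmo-4* overexpression by a transgene. The latter are called OE-labelled libraries below. Both groups were raised untreated from the egg on plates with a concentrated lawn of OP50 *E. coli*. The study made its overexpression strains from multicopy arrays integrated at random, with *fmo-4* driven in all tissues or in the hypodermis alone, and the labels do not tell which strain was sequenced. Whole bodies do not separate fewer cells of a type from less RNA per cell.

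Library totals ranged from 17576872 to 24943501 reads. Reads of *fmo-4* itself numbered 522, 397 and 525 in the WT libraries and 372, 476 and 368 in the OE-labelled ones, for a log2 fold change of -0.24 ± 0.18 (SE, edgeR adjusted p = 0.947). Scaled to library size, the counts were 528, 449 and 462 in WT and 425, 446 and 351 in OE-labelled libraries. All OE-labelled libraries were below all WT libraries on this scale, while 11.1% of all genes tested had no overlap in either direction. These reads go against the label, and every direction given below is between the libraries as labelled. By qPCR the study reported *fmo-4* well above WT in its ubiquitous and its hypodermal overexpression strain, the direction that the label gives. Those measurements were not analysed here. WT replicate 3 and OE-labelled replicates 2 and 3 stood apart from the other libraries, with 26.2%, 26.5% and 25.4% of their reads in genes under 1000 bases. WT replicates 1 and 2 and OE-labelled replicate 1 had between 19.7% and 20.6%. Intestinal, muscle, neuronal and germline markers had reads in all 6 libraries, as did the hypodermal markers *col-19*, *elt-3* and *dpy-7*, while the hypodermal *rol-6* had 0 reads in WT replicate 2 and OE-labelled replicate 1. The summed normalized count of 3 sperm markers was 798, 70.1 and 871 in WT and 138, 208 and 121 in OE-labelled libraries.

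None of the 10 genes differed between the groups at a p-value under 0.05, in an edgeR quasi-likelihood test with or without Benjamini-Hochberg adjustment. Of all 13413 genes tested, 7.34% passed without adjustment and 0.0447% with it. The Wald test of DESeq2 also passed 0 of the 10 by either measure. Unadjusted p-values ran from 0.270 for *ife-2* to 0.916 for *aak-2*, and adjusted p-values from 0.956 to 0.988. For every one of the 10 the range of the WT libraries overlapped the range of the OE-labelled libraries, while 11.1% of all genes tested had no overlap. The log2 fold change was below 0 for 7 genes and above 0 for 3, with a median of -0.09 beside -0.02 over all genes tested. In the libraries with more reads from short genes, 3 of the 10 genes were higher (19.8% of all genes tested) and 5 were lower (19.6% of all), without overlap.

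**Figure D1:**
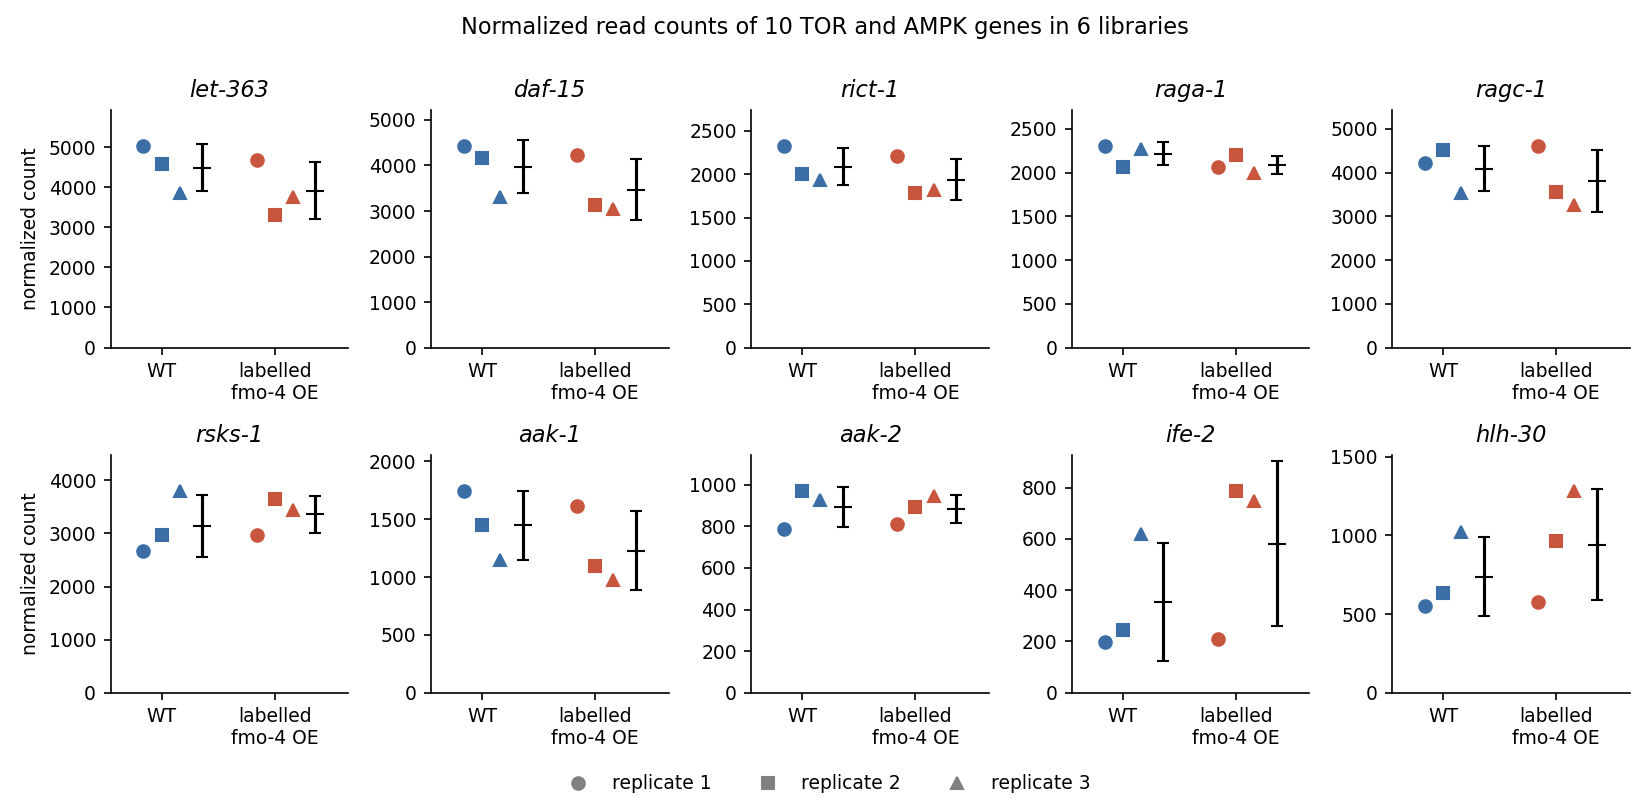
Normalized read count (counts scaled to the mean effective library size) of each of the 10 genes in the 3 WT libraries (blue) and the 3 OE-labelled libraries (red). Marker shape gives the replicate number, and black marks give the mean and SD of each group (n = 3). The groups overlap for all 10 genes, and *ife-2* shows the widest spread relative to its level, from 199 to 787.

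The labels call the replicates biological without saying how the populations of worms were kept apart, so p-values measure the spread between these samples. Genome positions are as deposited, and the build was not named in the sources used here.

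The TOR kinase gene *let-363* (B0261.2, chromosome I, 5245740 to 5263426, plus strand) is the shared catalytic subunit of both complexes. Its normalized counts were 5030, 4568 and 3859 in the WT libraries, by replicate number, and 4690, 3302 and 3762 in the OE-labelled ones. Replicate 1 of each group was the highest of its group, the ranges overlapped, and the mean was 4486 ± 590.0 (SD, n = 3) in WT and 3918 ± 707 in OE-labelled libraries. Its log2 fold change was -0.20 ± 0.17 (SE), and its 95% interval ran from -0.59 to 0.20. A pair of genes on the opposite strand overlaps *let-363*, and together they held 321 reads beside 24969 for *let-363* over the 6 libraries. Whether reads were counted by strand was not given in the sources used here.

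Raptor, the defining partner of TOR in complex 1, is encoded by *daf-15* (C10C5.6, chromosome IV, 9386208 to 9394922, plus strand). Normalized counts of *daf-15* were 4429, 4163 and 3315 in WT and 4235, 3121 and 3040 in OE-labelled libraries. Here too replicate 1 was the highest of each group, and WT replicate 3 lay beside the low OE-labelled libraries. A log2 fold change of -0.20 ± 0.18 (SE), almost that of *let-363*, came with an interval from -0.60 to 0.21.

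Rictor defines complex 2 and is encoded by *rict-1* (F29C12.3, chromosome II, 13098249 to 13116801, minus strand). Normalized counts of *rict-1* were 2326, 2007 and 1931 in WT and 2206, 1782 and 1816 in OE-labelled libraries. The 6 values lay close together, the highest being 1.31 times the lowest. Between the groups *rict-1* differed by -0.11 ± 0.14 (log2 fold change, SE), with an interval from -0.44 to 0.22.

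The remaining genes of the complexes showed no larger differences than their errors. The *mlst-8* gene, encoding the LST8 subunit that both complexes carry, had a log2 fold change of -0.13 ± 0.20 (SE). The value for *sinh-1*, encoding the Sin1 subunit of complex 2, was -0.02 ± 0.26, and for *rheb-1*, the small GTPase that activates complex 1, it was 0.01 ± 0.13. The kinase gene *sgk-1*, which acts below complex 2, was at -0.15 ± 0.24. None of these 4 passed an unadjusted p-value of 0.05, where 7.34% of all genes did (edgeR, p-values from 0.549 to 0.950).

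The Rag GTPases carry the amino acid signal to complex 1 as a heterodimer. RagA is encoded by *raga-1* (T24F1.1, chromosome II, 11301357 to 11302779, plus strand), and its normalized counts were 2305, 2063 and 2274 in WT and 2062, 2206 and 2000 in OE-labelled libraries. No other of the 10 genes varied so little over the 6 libraries, with a coefficient of variation of 5.89% beside a median of 22.6% for all genes tested. Its log2 fold change was -0.08 ± 0.12 (SE), and the interval from -0.36 to 0.19 leaves room for a fold between 0.781 and 1.14.

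RagC, the partner of RagA, is encoded by *ragc-1* (Y24F12A.2, chromosome IV, 11603612 to 11604924, minus strand). Its normalized counts were 4221, 4520 and 3537 in WT and 4608, 3565 and 3254 in OE-labelled libraries. The highest and the lowest of the 6 values were both in OE-labelled libraries. For *ragc-1* the log2 fold change was -0.10 ± 0.17 (SE), with an interval from -0.49 to 0.28, and it was 0.00 with OE-labelled replicate 3 left out.

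Of 8 other genes that pass amino acid signals to TOR, 0 passed an unadjusted p-value of 0.05 in edgeR, where 7.34% of all genes did (median log2 fold change -0.04). They were the GATOR1 genes *nprl-2* and *nprl-3*, the sestrin gene *sesn-1*, the Ragulator genes *lmtr-2*, *lmtr-3* and *lmtr-5*, the folliculin gene *flcn-1* and its partner *fnip-2*. The most abundant of them by normalized count was *flcn-1*, at 0.05 ± 0.20 (log2 fold change and SE).

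S6 kinase, a direct substrate of complex 1 that promotes translation, is encoded by *rsks-1* (Y47D3A.16, chromosome III, 11245189 to 11251257, plus strand). Normalized counts of *rsks-1* were 2678, 2961 and 3797 in WT and 2979, 3654 and 3438 in OE-labelled libraries. The highest value was that of WT replicate 3. The log2 fold change was 0.09 ± 0.16 (SE), with an interval from -0.28 to 0.47. It turned to -0.02 without WT replicate 1.

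The cap-binding protein IFE-2 is an eIF4E isoform of somatic tissues, and its loss extends worm lifespan. The *ife-2* gene (R04A9.4, chromosome X, 381381 to 382709, minus strand) had normalized counts of 199, 246 and 618 in WT and 210, 787 and 748 in OE-labelled libraries. WT replicate 3 and OE-labelled replicates 2 and 3 were high, and the remaining libraries were low whatever their label. The mean was 355 ± 229.6 (SD, n = 3) in WT and 582 ± 322 in OE-labelled libraries. On the log2 scale the difference was 0.71 ± 0.60 (SE), and its interval from -0.69 to 2.12 spans a fold from 0.618 to 4.34. It was 1.38 without WT replicate 3 (edgeR adjusted p = 0.570) and 1.14 without OE-labelled replicate 1 (edgeR adjusted p = 0.479). Those were the 2 leave-one-out fits in which any of the 10 genes passed an unadjusted 0.05.

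Among the eIF4E genes *ife-2* was a minor one. Its share of the summed level per length of the 5 *ife* genes was 3.38% ± 0.730 (SD, n = 3) in WT and 4.67% ± 1.74 in OE-labelled libraries. By library this share ran from 2.67% to 5.82%. The *ife-3* gene held 57.2% ± 6.62 in WT and 54.7% ± 6.35 in OE-labelled libraries, and *ife-1* held 36.4% ± 6.73 and 37.4% ± 5.38.

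One relative of *ife-2* did pass the unadjusted threshold. The *ife-4* gene, which encodes another protein of the eIF4E family, had normalized counts of 141, 138 and 159 in WT and 176, 219 and 241 in OE-labelled libraries. All 3 OE-labelled libraries lay above all 3 WT libraries, with a log2 fold change of 0.54 ± 0.22 (SE, edgeR adjusted p = 0.634). Of the 10 other cap-binding and translation genes it was the 1 that passed, where 7.34% of all genes did, with a median log2 fold change of 0.14 over the list. The unadjusted call of *ife-4* was lost in 5 of 6 fits with a library left out, holding only without OE-labelled replicate 1. The most abundant, *eef-2*, which encodes translation elongation factor 2, was at 0.12 ± 0.12.

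**Figure D2:**
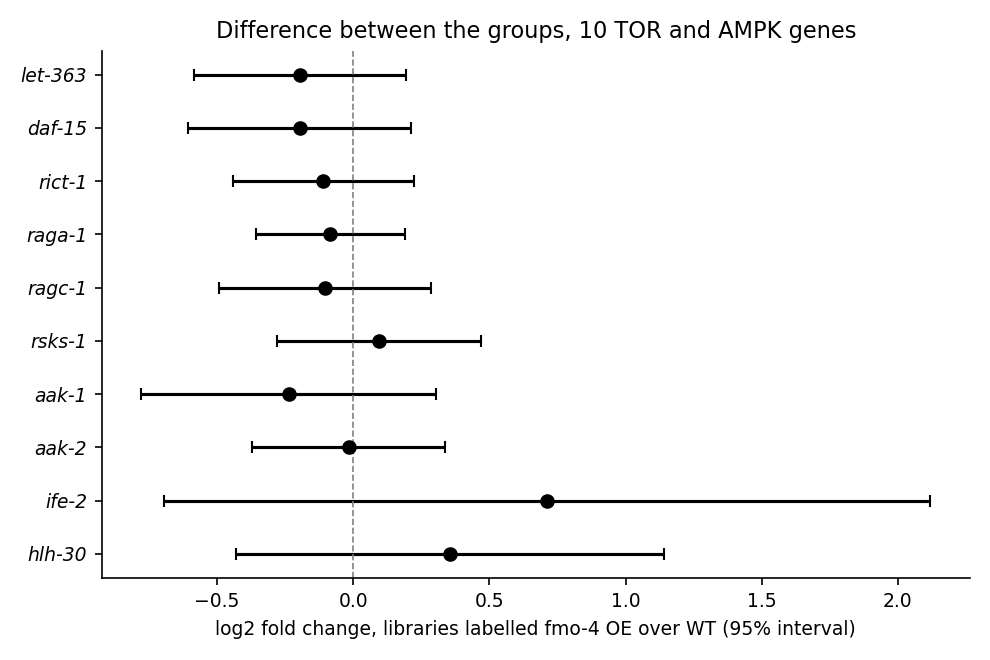
Log2 fold change of the OE-labelled libraries over WT for the 10 genes, with 95% intervals from the edgeR fit (n = 3 per group). All 10 intervals include 0, the narrowest is that of *raga-1* (-0.36 to 0.19) and the widest that of *ife-2* (-0.69 to 2.12).

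AMPK is a trimer of a catalytic alpha, a scaffolding beta and a nucleotide-sensing gamma subunit. Worms have the alpha genes *aak-1* (PAR2.3, chromosome III, 8756987 to 8760158, minus strand) and *aak-2* (T01C8.1, chromosome X, 16796087 to 16803372, plus strand), of which *aak-2* is the one best known for lifespan. Normalized counts of *aak-1* were 1743, 1452 and 1148 in WT and 1614, 1097 and 976 in OE-labelled libraries. Replicate 1 of each group was high, and the 2 lowest libraries were labelled *fmo-4* OE. For *aak-1* the log2 fold change was -0.24 ± 0.23 (SE), with an interval from -0.78 to 0.30.

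Normalized counts of *aak-2* were 788, 969 and 925 in WT and 810, 895 and 946 in OE-labelled libraries. The lowest value in each group was that of replicate 1, the reverse of *aak-1*. The log2 fold change was -0.02 ± 0.15 (SE), and the interval from -0.37 to 0.34 corresponds to a fold between 0.773 and 1.26. So small a value changed sign under 5 of 15 alternatives, between -0.11 and 0.06. Each alpha gene overlaps a gene on the opposite strand in the deposited coordinates, *sma-2* with 378 reads over the 6 libraries beside 7918 for *aak-1*, and *mec-4* with 45 reads beside 5342 for *aak-2*.

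The balance of the alpha genes differed between libraries more than between groups. Per length, *aak-1* was 2.36, 1.60 and 1.32 times *aak-2* in WT and 2.12, 1.31 and 1.10 times in OE-labelled libraries. Every library had more *aak-1* than *aak-2* on this scale. Mean ratios were 1.76 ± 0.537 (SD, n = 3) in WT and 1.51 ± 0.541 in OE-labelled libraries (two-sided exact permutation p = 0.5, adjusted p = 1.00 over 4 ratios, where the smallest possible p is 0.10). The other 3 ratios, chosen like this one after the values were seen, had ranges that overlapped as well. Raptor to Rictor transcripts (*daf-15* over *rict-1*) gave 1.64 ± 0.154 and 1.53 ± 0.108, *let-363* over *daf-15* gave 0.768 ± 0.0228 and 0.769 ± 0.0630, and *raga-1* over *ragc-1* gave 0.472 ± 0.0803 and 0.482 ± 0.0840. Their exact permutation p-values were 0.5, 1.00 and 1.00.

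The beta and gamma subunits did not pass the test either. Log2 fold changes were 0.02 ± 0.27 (SE) for *aakb-1* and 0.25 ± 0.48 for *aakb-2*, the beta genes. The gamma genes stood at 0.06 ± 0.15 for *aakg-1*, 0.04 ± 0.21 for *aakg-2*, -0.43 ± 0.35 for *aakg-3*, -0.35 ± 0.29 for *aakg-4* and -0.22 ± 0.19 for *aakg-5*. Within the gamma genes *aakg-5* made up 51.6% ± 5.24 (SD, n = 3) of the summed level per length in WT and 47.5% ± 4.11 in OE-labelled libraries, so that it was the leading gamma transcript in both groups. Next came *aakg-1*, with 27.8% ± 4.72 and 31.1% ± 4.47. Counting the LKB1 gene *par-4* and its cofactors *strd-1*, *mop-25.1* and *mop-25.2*, 0 of 11 other AMPK genes had an unadjusted p-value under 0.05, beside 7.34% of all genes, with a median log2 fold change of 0.00. Of 4 genes that AMPK acts on in worms or mammals, *crtc-1*, *crh-1*, *pod-2* and *sbp-1*, 0 passed against the same share, and the most abundant, the acetyl-CoA carboxylase gene *pod-2*, was at -0.02 ± 0.12.

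HLH-30 is the worm ortholog of mammalian TFEB, which TOR complex 1 holds in the cytoplasm. The *hlh-30* gene (W02C12.3, chromosome IV, 4015615 to 4019039, minus strand) had normalized counts of 550, 636 and 1021 in WT and 575, 967 and 1281 in OE-labelled libraries. WT replicate 3 and OE-labelled replicates 2 and 3 were again the high libraries. For *hlh-30* the log2 fold change was 0.35 ± 0.34 (SE), with an interval from -0.43 to 1.14. With a library left out it ran from 0.07, without OE-labelled replicate 3, to 0.66, without WT replicate 3. The deposited gene model spans 3425 bases, while the RefSeq annotation (WBcel235) gives *hlh-30* a span of 19990 bases and 10 transcripts. Smaller gaps were found for *aak-1* (3172 deposited, 4108 in RefSeq) and *rsks-1* (6069 and 7162), and levels per length rest on the deposited models. Whether reads of the longer models were counted was not given in the sources used here.

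The pattern that most of the 10 genes shared was the division between libraries. The *ife-2*, *hlh-30* and *rsks-1* genes were higher in each of WT replicate 3 and OE-labelled replicates 2 and 3 than in any of the other libraries, as were 19.8% of all genes tested. The *let-363*, *daf-15*, *rict-1*, *ragc-1* and *aak-1* genes were lower in each of them, as were 19.6% of all genes tested. Only *raga-1* and *aak-2* overlapped. These sets of libraries were set by the share of reads from genes under 1000 bases. Each set holds both labels, but the set with the larger share is mostly OE-labelled and the other mostly WT. The share and the label are therefore not fully separate. At 839 bases, *ife-2* is itself one of the genes counted in that share. The median deposited gene length was 2281.5 bases for the 10 genes, beside 1321 over all genes tested. Lengths ran from 1093 (*ragc-1*) to 8565 (*let-363*) for the lower genes and from 839 to 2307 (*hlh-30*) for the higher ones. Some tissue markers were divided by the same sets, but most of those tested were not. The summed normalized count of 4 hypodermal markers, nearly all *col-19*, was 29930, 23313 and 23627 in the libraries with the larger share, beside 9023 to 12066 in the others. Of 20 marker genes tested, *col-19* and the intestinal *elt-2* were higher there without overlap, beside 19.8% of all genes tested. The other hypodermal markers tested, *dpy-7* and *elt-3*, overlapped. Of the 20, 4 were lower, beside 19.6% of all genes tested. Those were the muscle genes *myo-3* and *unc-15*, the neuronal *snb-1* and the germline *gld-1*. The remaining markers tested overlapped. Among them were the intestinal *ges-1*, *vit-2* and *vit-6*, *unc-54* of muscle, the neuronal *rab-3* and *unc-31*, the germline *glp-1* and *pgl-1*, and every sperm marker. The part of the share or of these tissues in the members' values was not tested beyond the fits given here.

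The groups were also compared within libraries of like composition. Over WT replicates 1 and 2, OE-labelled replicate 1 gave log2 ratios from -0.12 for *aak-2* to 0.08 for *rsks-1* across the 10 genes. Over WT replicate 3, the mean of OE-labelled replicates 2 and 3 gave log2 ratios from -0.15 for *aak-1* to 0.31 for *ife-2*. For *ife-2* the ratio was -0.08 in the first set of libraries and 0.31 in the second. For *hlh-30* it was -0.04 and 0.14. With 1 library on one side of each, these ratios carry no test. With the share as a covariate, added after seeing the data, the log2 fold change of *ife-2* was 0.19 and that of *hlh-30* 0.10, and 0 of the 10 genes passed an unadjusted 0.05.

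**Figure D3:**
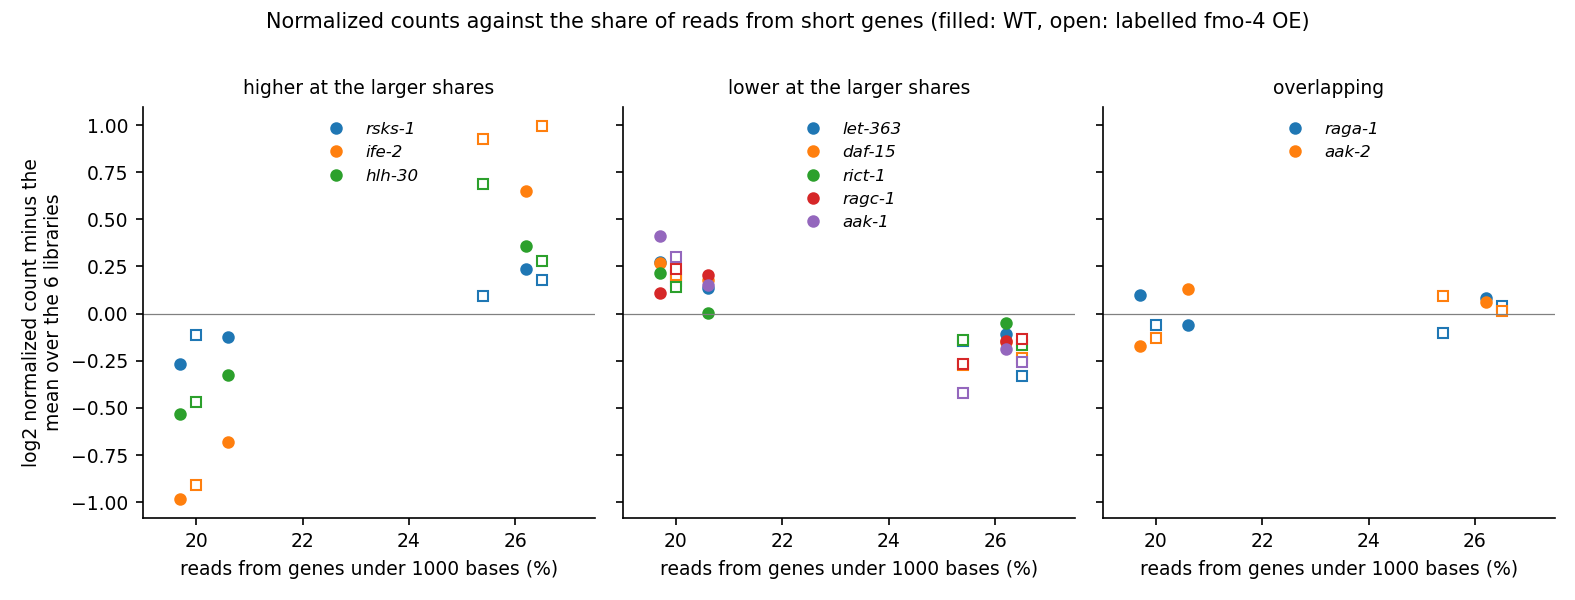
Log2 normalized count of each of the 10 genes, minus its mean over the 6 libraries, against the percentage of reads from genes under 1000 bases in that library. Filled points are WT and open points are OE-labelled libraries. Shares fall into 19.7 to 20.6% and 25.4 to 26.5%; *rsks-1*, *ife-2* and *hlh-30* are higher and 5 genes lower at the larger shares, and each set of libraries holds both labels.

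Levels per length, as RPKM computed from the counts with the deposited gene length and the effective library size, put the 10 genes in a wide order. The RagC gene *ragc-1* was the most abundant, at 181 ± 22.4 (SD, n = 3) in WT and 169 ± 31.5 in OE-labelled libraries. It stood above 95.3% of all genes tested, and its lowest library (144) was above the highest library of any other member (94.0). Next were *raga-1*, at 84.4 ± 5.02 and 79.7 ± 4.03, and *rsks-1*, at 77.9 ± 14.4 and 83.1 ± 8.54, whose libraries overlapped each other. Their lowest library (66.3) was above the highest of the remaining 7 genes (45.5).

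Transcripts of the TOR and AMPK kinases and of the TOR scaffolds were less abundant per length than those of the Rag GTPases. The level of *daf-15* was 33.1 ± 4.85 in WT and 28.9 ± 5.57 in OE-labelled libraries, and that of *aak-1* was 31.1 ± 6.39 and 26.4 ± 7.28. The TOR kinase gene *let-363* was at 25.4 ± 3.34 and 22.2 ± 4.0, and *rict-1* was at 20.2 ± 2.03 and 18.7 ± 2.29. Levels were 20.5 ± 13.3 and 33.6 ± 18.6 for *ife-2*, 18 ± 1.91 and 17.8 ± 1.37 for *aak-2*, and 15.5 ± 5.28 and 19.8 ± 7.44 for *hlh-30*. Pooled over the 6 libraries, each of these 7 overlapped its neighbours in the order. Compared within each library, *let-363* was above *rict-1*, the next gene by mean level, in all 6. For the other neighbouring pairs the order changed between libraries, so their places are not separated by these data.

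**Figure D4:**
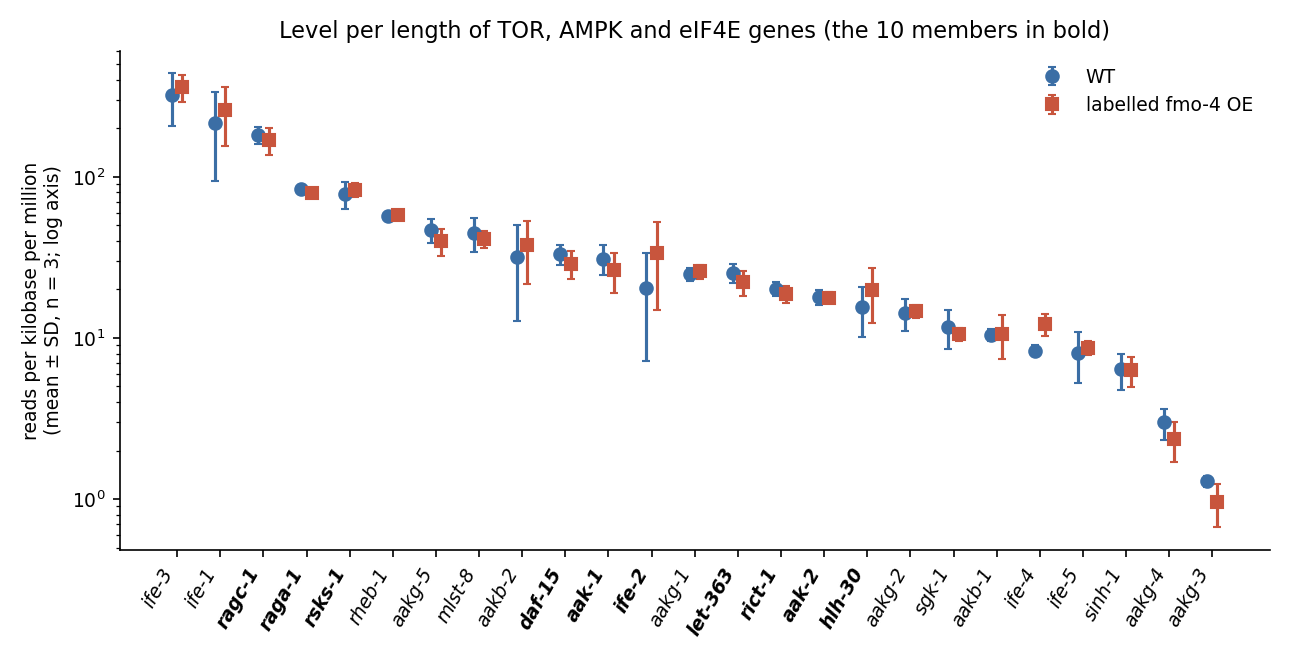
Level per length (RPKM, log axis) of the 10 genes, named in bold, and of the other TOR complex, AMPK and eIF4E genes, as mean ± SD of 3 WT libraries (blue) and 3 OE-labelled libraries (red). Group means run from 360.1 (*ife-3*) to 0.957 (*aakg-3*), both in OE-labelled libraries, and *ragc-1* (181 in WT) is the highest of the 10.

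A wider set of 103 genes named from general knowledge of these pathways was sought, of which 102 were in the table and 100 passed the filter on low counts. Without adjustment 3 of the 100 were higher (4.32% of all genes tested) and 4 were lower (3.01% of all), and with adjustment 0 passed by edgeR or by DESeq2. Their median log2 fold change was -0.07, beside -0.02 over all genes tested. The count of 7 fell to 2 without WT replicate 1, to 4 without WT replicate 3, to 0 without OE-labelled replicate 2 and to 2 without OE-labelled replicate 3. The 3 higher genes were *ife-4*, *epg-2* and *pha-4*, and the 4 lower genes were *vha-6*, *lipl-2*, *lipl-3* and *nhr-62*.

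Autophagy genes, which TOR represses, were split evenly, with 12 of 26 above 0 and a median log2 fold change of -0.01, which lay on either side of 0 over the alternatives (-0.03 to 0.07). The most abundant, *lgg-1*, the worm LC3 and GABARAP homolog, was at -0.02 ± 0.16 (SE). The 1 gene that passed unadjusted, where 7.34% of all genes did, was *epg-2*, encoding an adaptor that sends germ granule proteins to autophagy in embryos, with normalized counts of 645, 1427 and 629.9 in WT and 1484, 1647 and 1963 in OE-labelled libraries. Its groups did not overlap, but WT replicate 2 lay close to the OE-labelled libraries, and the log2 fold change was 0.92 ± 0.33 (SE, edgeR adjusted p = 0.597). Without WT replicate 2 it was 1.41 (edgeR adjusted p = 0.0374), the 1 setting in which any of these pathway genes passed adjustment. In that fit 131 of all genes passed adjustment, beside 6 with every library kept, and 1 of 101 pathway genes did. The unadjusted call of *epg-2* was lost without any 1 of WT replicates 1 and 3 and OE-labelled replicates 2 and 3. It was also lost with the short-gene share as a covariate (edgeR unadjusted p = 0.0561). The *unc-51* gene, the worm ULK1 homolog, picked here after its value was seen, was at 0.33 ± 0.30.

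The lysosome is the platform of complex 1, and many of its genes are HLH-30 targets. Of 27 lysosome and V-ATPase genes, 23 had a log2 fold change below 0, and the median was -0.15. With a library left out this median ran from -0.18, without OE-labelled replicate 1, to -0.09, without OE-labelled replicate 3, and it was -0.10 without WT replicate 1. Of all genes tested, 7079 of 13413 were below 0. One of the 27 passed, where 7.34% of all genes did. It was *vha-6*, encoding a V-ATPase subunit of the intestinal apical membrane, with normalized counts of 5671, 4488 and 4310 in WT and 4198, 3566 and 3087 in OE-labelled libraries. All WT libraries were above all OE-labelled libraries, and the log2 fold change was -0.42 ± 0.17 (SE, edgeR adjusted p = 0.627). Its unadjusted call was lost with DESeq2, with library size alone and in 4 of 6 fits with a library left out. The lysosomal cathepsin L gene *cpl-1*, the most abundant of the list, was at -0.19 ± 0.14. In the libraries with more reads from short genes, 12 of the 27 were lower (19.6% of all genes tested) and 4 higher (19.8% of all) without overlap.

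The lysosomal acid lipases, which HLH-30 and its antagonist MXL-3 regulate during fasting, differed widely in level. The genes *lipl-1* to *lipl-4* were scarce, while *lipl-5* had mean normalized counts of 1913 in WT and 1602 in OE-labelled libraries. Normalized counts of *lipl-2* were 52.6, 9.04 and 60.7 in WT and 5.72, 7.49 and 17.2 in OE-labelled libraries. Those of *lipl-3* were 9.11, 13.6 and 44.9 in WT and 4.57, 10.3 and 6.68 in OE-labelled libraries. For both genes the groups overlapped, and the high WT values came from replicates 1 and 3 for *lipl-2* and from replicate 3 for *lipl-3*. Log2 fold changes were -1.99 ± 0.74 (SE, edgeR adjusted p = 0.597) and -1.63 ± 0.70. The unadjusted call was lost in 4 of 6 fits with a library left out for *lipl-2*, and in 3 of 5 for *lipl-3*. Without WT replicate 3, its highest library, *lipl-3* was not tested. Neither gene was tested where at least 10 counts in every library were required. The most abundant lipase, *lipl-5*, was at -0.26 ± 0.26, *mxl-3* itself was at -0.39 ± 0.35, and *lipl-1* and *lipl-4* failed the filter.

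Among 5 further longevity factors linked to TOR or dietary restriction, *pha-4* was higher (4.32% of all genes tested) and *nhr-62* lower (3.01% of all) without adjustment. The *pha-4* gene, encoding a FoxA factor of pharynx development that dietary restriction also needs, had normalized counts of 141, 397 and 209 in WT and 352, 479.6 and 716 in OE-labelled libraries. WT replicate 2 fell inside the range of the other group, and the log2 fold change was 1.05 ± 0.42 (SE, edgeR adjusted p = 0.632). The gene *nhr-62*, encoding a nuclear hormone receptor of dietary restriction, had 60.7, 97.2 and 97.7 in WT and 53.7, 30.9 and 59.2 in OE-labelled libraries, at -0.83 ± 0.35. The unadjusted call was lost in 4 of 6 fits with a library left out for each of the pair. That of *pha-4* was also lost with the short-gene share as a covariate (edgeR unadjusted p = 0.0998). That of *nhr-62* was also lost with library size alone, without a filter on low counts and with the length-trend offset. The most abundant of the 5, *skn-1*, was at -0.21 ± 0.15, and *daf-16* and *hif-1* did not pass.

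Some marker genes of other cells were divided between the libraries like some of these values. The division was picked after the values were seen, and the share of all genes with it was not computed. WT replicates 1 and 3, which were low in *epg-2* and *pha-4* and high in *lipl-2*, had the highest counts of each of the 3 sperm markers (in sum 798 and 871, beside 70.1 to 208 in the remaining libraries). In the same libraries the hypodermal collagen gene *dpy-7* had 17.2 and 29.9, beside 133 to 442 elsewhere, the 1 of 4 hypodermal markers with this pattern. The summed count of 3 early embryo markers was 15.2 and 10.6, beside 26.0 to 35.3, and of the 3 only *end-1* was lowest in both. Among the intestinal, muscle, neuronal and germline markers, only *pgl-1* set both libraries apart, with 12253 and 11040 beside 8691 to 10184. The part of these tissues in the 3 genes was not tested.

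**Figure D5:**
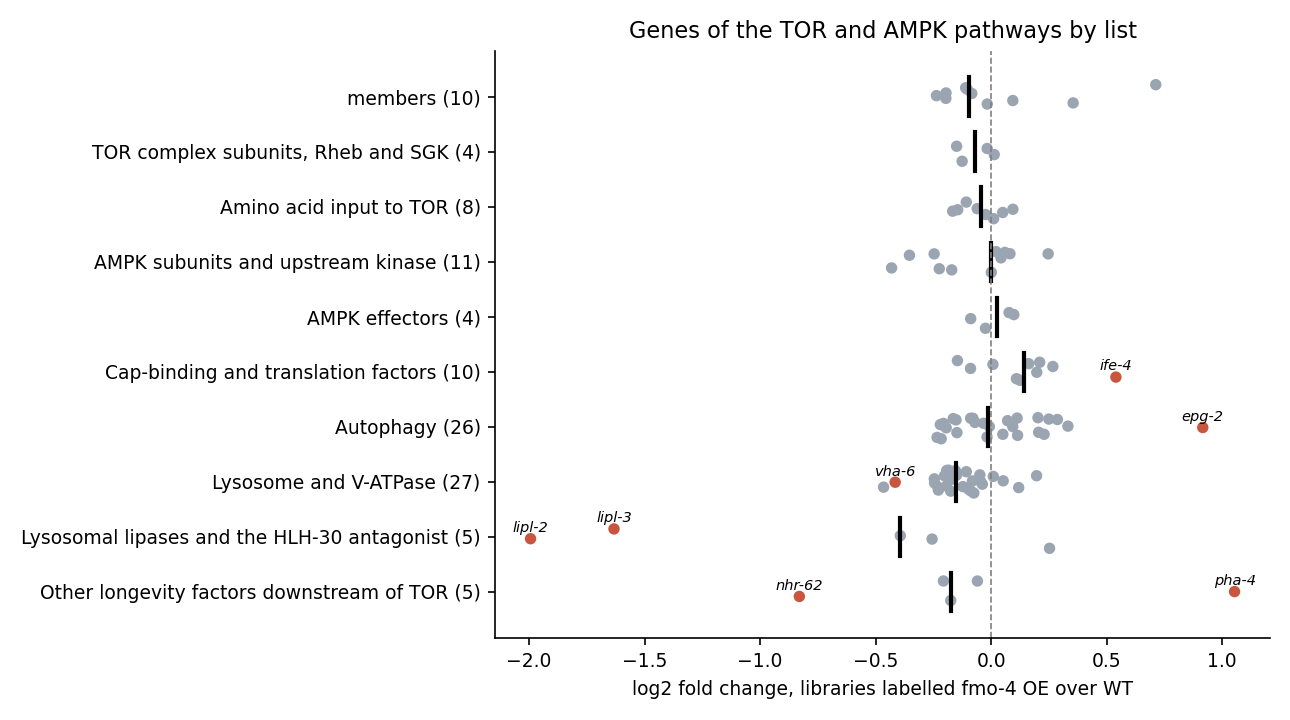
Log2 fold change of the OE-labelled libraries over WT for the 10 members and the 9 other lists of pathway genes, with the number of genes tested in parentheses. Each point is a gene, black bars are list medians, and the 7 genes with an unadjusted edgeR p-value under 0.05 are red and named. The lysosome and V-ATPase list has a median of -0.15, and no member is red.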

How the data were processed

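Library counts came from whole day 1 adults, 3 WT and 3 labelled *fmo-4* OE. Per the labels, messenger RNA was selected on poly-T beads, and the submitters' processing notes name fastp, HISAT2, StringTie and featureCounts. The genome build, the annotation and the strand of counting were not given in the sources used here. The authors deposited whole-number read counts per gene without normalization, beside scaled values, fold changes and p-values of their own, none of which were used. A further 66 columns of single libraries were not used. The table listed genes with at least 2 reads in total. Names were found for 19815 of 20138 genes through RefSeq locus tags, and 1 of the 103 further pathway genes sought (*wdr-24*) was not matched.

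Counts were tested in R 4.3.3 with edgeR 4.0.16 (filterByExpr, TMM, robust glmQLFit and glmQLFTest, no covariate). The Benjamini-Hochberg adjustment ran over all 13413 genes in the fit. The common biological coefficient of variation was 0.297, which with 3 libraries per group sets the precision. Standard errors are the absolute log2 fold change over the square root of F. Normalized counts are scaled to the mean effective library size, and levels are RPKM from the deposited gene length and the effective library size.

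Alternatives were DESeq2 1.42.0, RLE factors, library size alone, other count filters (a minimum of 1 in total, or 10 in every library), a replicate block, a length-trend offset, each library left out, and, added after seeing the data, the short-gene share as a covariate. The fit as reported, DESeq2, the replicate block and the length-trend offset were also run on simulated counts with known changes. Those changes were larger than the differences of the members, and the simulated libraries held no split by short genes. The simulation therefore does not bear on differences as small as those of the members or on that split.

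The members, the gene lists and the tests were chosen with earlier results of these data known. All members, the AMPK and TOR complex subunits, and from the other lists the most abundant gene and those at an unadjusted p under 0.05 were to be named.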

Additional observations from a re-analysis of the deposited data

How the results depend on the processing

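All 10 members stayed above an adjusted p of 0.05 under each of the 15 alternatives run, with the lowest adjusted p at 0.479. Their count at an unadjusted 0.05 was 0 to 1 with a library left out, the 1 being *ife-2* without WT replicate 3 or without OE-labelled replicate 1, and 0 under every other alternative. Signs turned in 8 of 150 member values. Those were *aak-2* without a filter beyond 1 count (0.0208), with at least 10 counts in every library (0.0147), and without WT replicate 2, WT replicate 3 or OE-labelled replicate 1 (-0.112 to 0.0616 over the libraries left out), *rsks-1* without WT replicate 1 (-0.0217 to 0.248 over the libraries left out) or with the short-gene share as a covariate (-0.0013), and *ragc-1* without OE-labelled replicate 3 (-0.246 to 0.00222 likewise). The cause was not tested.

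Over all genes, 6 passed adjustment, against 125 by DESeq2, 10 without a filter, 0 with at least 10 counts in every library and 14 with the short-gene share as a covariate. With a library left out the adjusted count was as low as 0, without WT replicate 1, and as high as 131, without WT replicate 2, and it was 3 without either of OE-labelled replicates 2 and 3. The unadjusted count of 984 ran from 502 to 1628, and that of the 100 other pathway genes from 0 to 8 around the 7 of the fit as reported. So the backgrounds given beside the members rest on which libraries enter.

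Deviations of same-numbered libraries correlated at 0.428, -0.309 and 0.356 for replicates 1, 2 and 3, so not every pair deviated together and the numbers were not taken as pairs. With the replicate block, 1261 genes passed unadjusted and 5 adjusted, 0 of the 10 members passed, and all 10 kept their sign, while *lipl-3* and *nhr-62* no longer passed unadjusted. The block lowered the unadjusted edgeR p-value of every member but *aak-2* (0.919 beside 0.916). The lowest was that of *hlh-30*, at 0.0772 beside 0.326 without the block. WT replicates 2 and 3 and OE-labelled replicate 2 each correlated better with another number.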
